A study of Mus musculus with 9 samples.

Results

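The 33 genes described here encode enzymes of cholesterol synthesis, enzymes of fatty acid synthesis and desaturation, and the proteins that control both through the SREBP transcription factors. They were chosen by name, as a list of pathway genes, and each was read on the probe set that carried its symbol. Of the 33, 28 were named on the array table and 27 passed the filter on dim probe sets, out of 19505 named genes and 10042 genes that passed. The sterol arm held 16 measured genes of 18 listed, of which 7 belong to the mevalonate branch (from acetyl-CoA to squalene) and 9 to the post-squalene branch (from squalene to cholesterol). The fatty acid arm held 8 measured genes of 10, and 4 of 5 genes for regulators and sterol transport were measured. Acat2, Tm7sf2, Srebf1, Scd2 and Acsl3 were listed but carried no probe set name here. Scd1 was measured but lay below the filter, and its levels are given without a test.

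The 9 arrays measured RNA of macrophages that were grown from the bone marrow of wild-type C57BL/6 mice over 7 days in medium with 10% serum and M-CSF, the growth factor that drives marrow cells into this lineage. The M-CSF concentration is given as 10 ng/ml in one label and as 20 ng/ml in another. Every group, vehicle included, was stimulated with 20 ng/ml of IL-4 (interleukin 4) for 24 h, so no array shows macrophages without IL-4. The groups differed in lipocalin 2 (LCN2), a secreted protein that binds siderophores: vehicle alone, LCN2 added on day 7 at a dose that the labels leave out, or 150 ng/ml LCN2 present from day 0. Each group had 3 arrays, numbered 1 to 3 in the titles. The labels say neither whether these were separate mice or cultures nor what the number stands for, and the p-values therefore measure the spread between these arrays, which may be technical. The age of the mice was not given.

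Cells sense sterol in the membrane of the endoplasmic reticulum. When sterol is scarce, Scap escorts the SREBP precursors to the Golgi, where proteases release the part that enters the nucleus. Insig proteins hold Scap back when sterol is plentiful. SREBP-2, the product of Srebf2, acts mainly on genes of cholesterol synthesis and uptake, and SREBP-1, the product of Srebf1, mainly on genes of fatty acid synthesis. On promoters the SREBPs bind sterol regulatory elements and usually act together with NF-Y or Sp1 bound nearby. In macrophages, which take up lipid from dead cells and lipoproteins, excess cholesterol also forms oxysterols that switch on LXR target genes for cholesterol export.

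The promoters of 6 members are shown because their genes were called between the arrays numbered 1 and the rest: 4 enzymes of the sterol arm and Insig1, which were higher on the arrays numbered 1, and Elovl6, which was lower there. Each is the stretch of 250 bases before the transcription start, from RefSeq on the mouse build GRCm38.p6, printed in the direction of transcription. Capitals mark matches to 4 motifs searched on both strands: the sterol regulatory element (TCACNCCAC), the NF-Y box (CCAAT), the GC box bound by Sp1 (GGGCGG) and an E-box (CACGTG). The windows lie at chr13:119690101-119690350 (plus strand) for Hmgcs1, chr5:4104698-4104947 (minus strand) for Cyp51, chr8:64733579-64733828 (minus strand) for Msmo1, chr9:42264301-42264550 (minus strand) for Sc5d, chr5:28071162-28071411 (plus strand) for Insig1 and chr3:129532136-129532385 (plus strand) for Elovl6.
Hmgcs1: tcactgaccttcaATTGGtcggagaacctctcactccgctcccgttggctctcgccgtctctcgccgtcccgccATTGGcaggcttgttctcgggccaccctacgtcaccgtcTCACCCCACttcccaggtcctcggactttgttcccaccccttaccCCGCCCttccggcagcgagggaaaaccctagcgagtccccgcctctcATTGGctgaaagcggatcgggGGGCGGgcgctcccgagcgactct
Cyp51: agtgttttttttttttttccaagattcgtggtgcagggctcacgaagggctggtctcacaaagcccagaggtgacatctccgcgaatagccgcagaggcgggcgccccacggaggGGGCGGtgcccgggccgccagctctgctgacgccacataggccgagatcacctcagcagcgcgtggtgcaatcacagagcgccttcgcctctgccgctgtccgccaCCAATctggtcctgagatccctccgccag
Msmo1: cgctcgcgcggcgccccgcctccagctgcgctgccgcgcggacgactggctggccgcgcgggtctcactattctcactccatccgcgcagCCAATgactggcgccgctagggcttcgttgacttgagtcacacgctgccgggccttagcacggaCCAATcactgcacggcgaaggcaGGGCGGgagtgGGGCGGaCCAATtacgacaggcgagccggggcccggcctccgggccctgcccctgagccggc
Sc5d: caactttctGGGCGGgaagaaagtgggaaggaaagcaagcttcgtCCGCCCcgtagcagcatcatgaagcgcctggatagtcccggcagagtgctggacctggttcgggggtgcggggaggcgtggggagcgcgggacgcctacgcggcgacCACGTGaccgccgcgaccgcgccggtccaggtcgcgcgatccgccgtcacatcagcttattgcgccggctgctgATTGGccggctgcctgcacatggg
Insig1: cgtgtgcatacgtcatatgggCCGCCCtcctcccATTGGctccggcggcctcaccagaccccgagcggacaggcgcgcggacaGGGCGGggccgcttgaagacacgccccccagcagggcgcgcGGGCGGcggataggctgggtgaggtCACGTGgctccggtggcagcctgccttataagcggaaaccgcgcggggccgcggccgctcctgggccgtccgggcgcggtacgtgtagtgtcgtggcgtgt
Elovl6: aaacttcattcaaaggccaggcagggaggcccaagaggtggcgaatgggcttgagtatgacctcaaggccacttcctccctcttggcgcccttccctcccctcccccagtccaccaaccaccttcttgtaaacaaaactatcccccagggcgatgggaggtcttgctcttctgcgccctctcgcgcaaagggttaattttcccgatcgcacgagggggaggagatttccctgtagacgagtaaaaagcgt

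Of the 33 members, 26 had a window in the table used. Of the 15 sterol arm genes with a window, 14 (93.3%) held an NF-Y box, against 3 of 7 (42.9%) in the fatty acid arm, 40.3% of the 8236 genes that were tested on the arrays and 37.5% of all 27025 genes in the table. The GC box gave the same counts in both arms, 14 of 15 and 3 of 7, against 63.4% of the tested genes. Hmgcs1 was the single member with the sterol regulatory element spelled as searched, which 1.18% of tested genes held. Sites that differ from this spelling were not searched. The E-box was found in 6 of 26 members (23.1%), against 10.2% of tested genes. The windows of Elovl6 and Acaca held none of the 4 motifs. Any link of the motifs to the array results was not tested. A match describes the letters in the window, and factor binding was not measured.

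**Figure D1:**
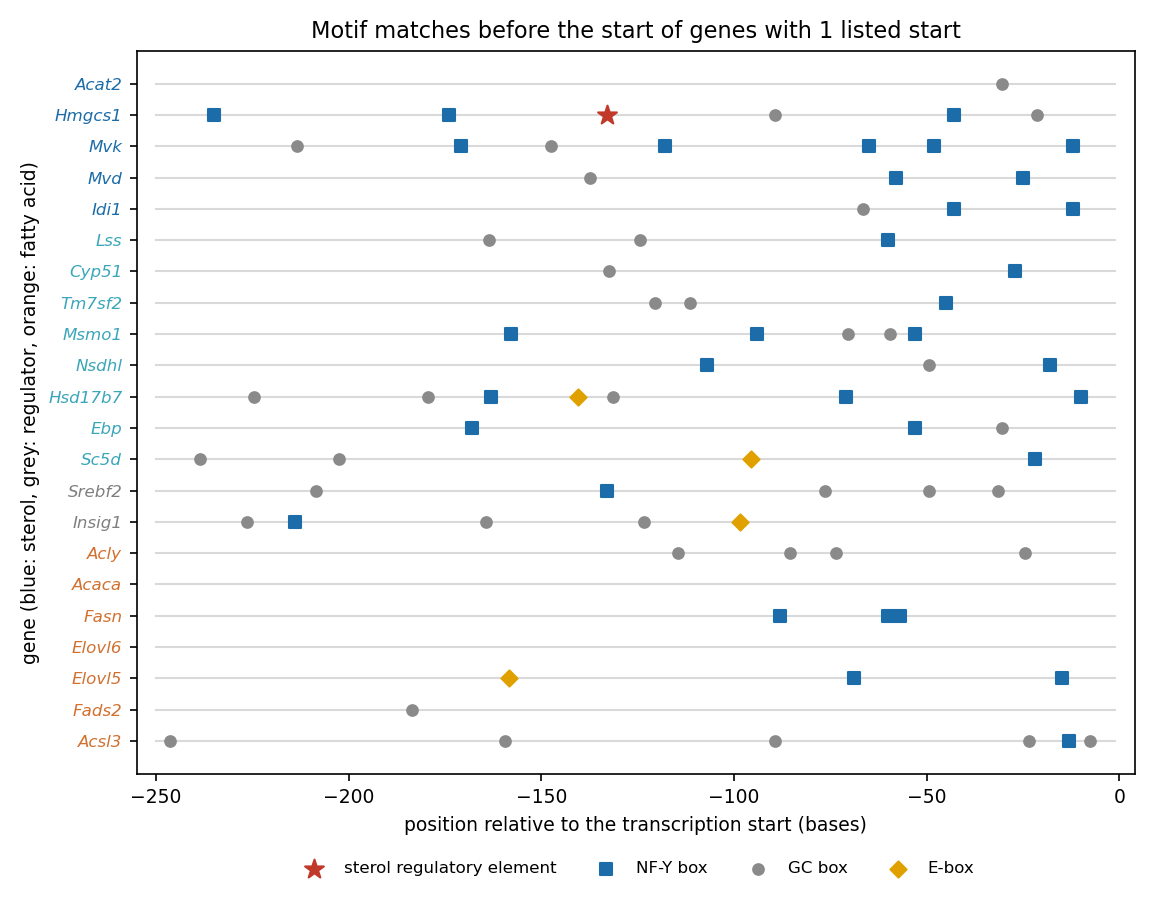
Positions of motif matches in the 250 bases before the transcription start, for the 22 members with 1 listed start. Each line is a gene and the horizontal axis is the distance from the start in bases. NF-Y boxes (squares) and GC boxes (circles) lie in nearly all sterol arm windows, the sterol regulatory element (star) lies in Hmgcs1 alone, and the windows of Acaca and Elovl6 are empty.

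Markers of the labelled cell type were present. All 8 measured macrophage markers passed the filter, with Csf1r, the M-CSF receptor, at 11.97 to 12.16 on the 9 arrays, and all 5 measured lymphocyte markers lay below it. The filter does not single out macrophages: 7 of 10 measured neutrophil genes, 6 of 7 monocyte genes and 6 of 8 osteoclast and fusion genes passed it too. In every group the array numbered 1 was unlike the other 2: limma called 3333 of 10042 genes (33.2%) between the arrays numbered 1 and the mean of those numbered 2 and 3, with the group in the model, at a Benjamini-Hochberg adjusted p under 0.05. Of these, 1109 were higher on the arrays numbered 1 (11.0% of genes tested) and 2224 were lower (22.1%). The higher share of called genes was 33.3%, and it was 46.1% (1481 of 3212) after quantile normalization of the deposited values. The count dropped to 1783 when vehicle replicate 1 was left out and to 1926 when LCN2 day 0 replicate 1 was. Between numbers 2 and 3, limma called 0 genes and 0 members, with 310 genes (3.09%) and 0 members at an unadjusted p under 0.05. The members are therefore described first by title number and then by LCN2 group.

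On the arrays numbered 1, most cholesterol synthesis genes were higher, while the fatty acid genes as a list lay near all genes tested. In the sterol arm 10 of 16 genes were higher than on the arrays numbered 2 and 3 and 0 were lower (limma, adjusted p under 0.05), against 11.0% higher and 22.1% lower among all genes tested. All 16 differences were above 0 (15 with array medians set equal), with a median of 0.50 on the log2 scale, while the median of all genes tested was -0.06. In the fatty acid arm 0 of 7 tested genes were higher and 2 were lower, with a median of -0.07 (0.015 after quantile normalization). In so short a list these counts and this median are near those of all genes tested. Of the 4 regulators and transport genes, 2 were higher, with a median of 0.24. Over all 27 tested members, 12 were higher and 2 lower. The count of 14 called members ran from 8 to 17 over the 16 alternatives. It was 8 without vehicle replicate 1 and 9 without LCN2 day 7 replicate 1. Called genes fell as well, from 3333 to 1783 and 2615. A stricter filter at the 75th percentile left 15 members, of which 9 were called, against 50.4% of all genes tested there. After quantile normalization 17 members were called, with 14 of 16 sterol arm genes higher, and 3212 genes were called.

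**Figure D2:**
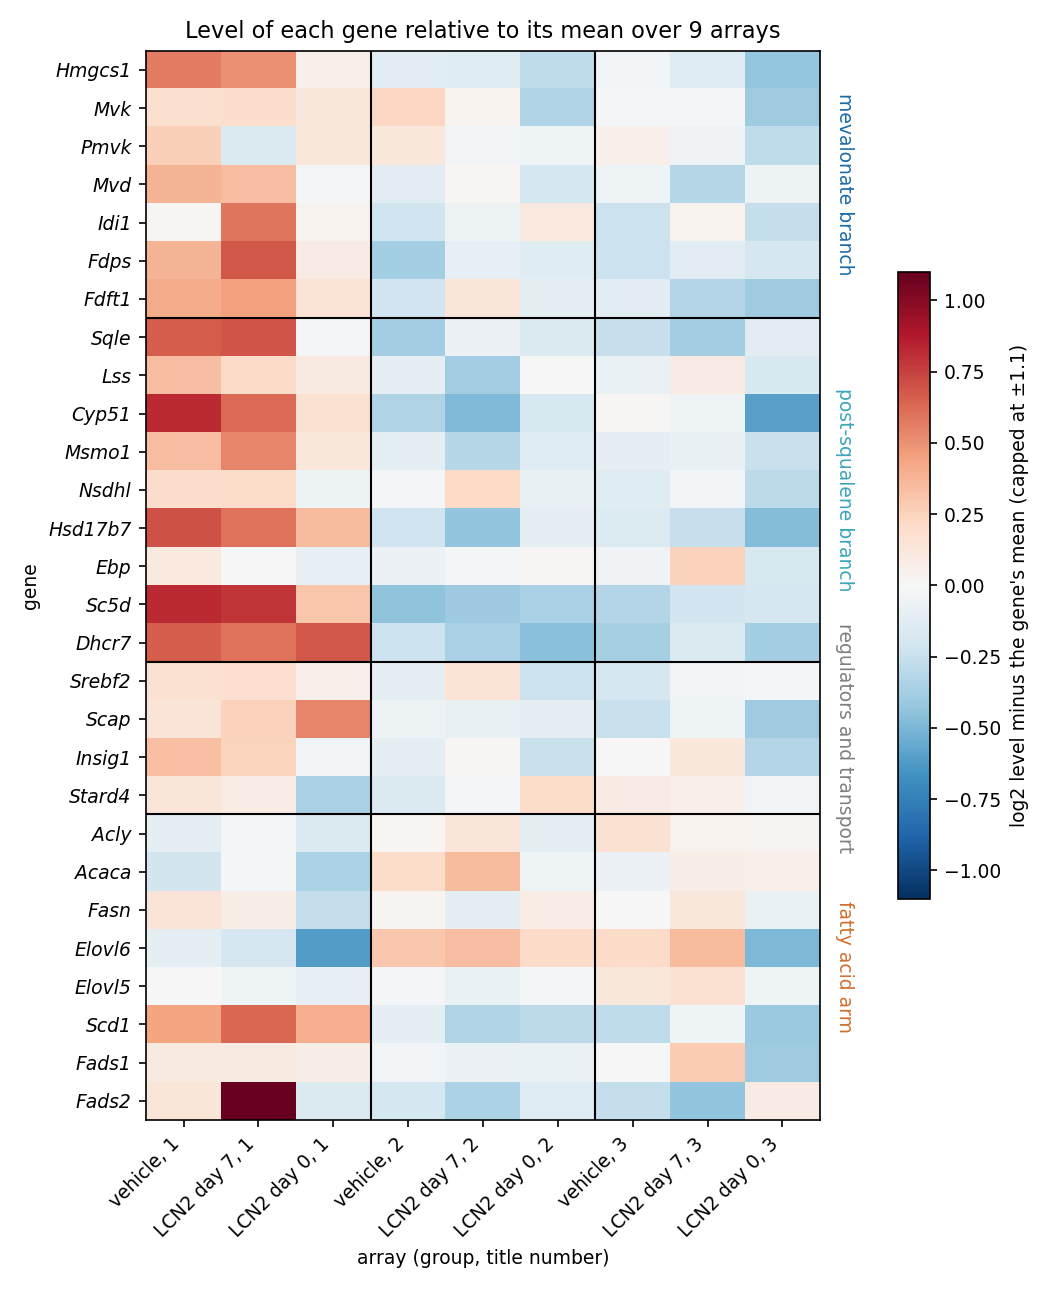
Log2 level of each of the 28 measured members on each of 9 arrays, minus the gene's own mean over the arrays, with red above and blue below that mean. Columns are ordered by title number and then by group, and genes by role. The 3 columns of arrays numbered 1 are red across most of the sterol arm, less so for the LCN2 day 0 array, while Elovl6 is blue there and Fads2 is dark red on 1 array.

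The mevalonate branch builds isoprenoid units from acetyl-CoA and joins them into squalene, and 4 of its 7 measured genes were higher on the arrays numbered 1 (median difference 0.35). Hmgcs1, the cytosolic synthase that makes HMG-CoA at the entry to the pathway, was at 10.24 in the vehicle group, 10.18 in the LCN2 day 7 group and 9.73 in the LCN2 day 0 group on the arrays numbered 1. On the other 6 arrays it ranged from 9.25 to 9.64 (median 9.54), so that all 3 arrays numbered 1 lay above all 6 others. The difference was 0.57 ± 0.09 (SE), a 1.48-fold higher level (limma, adjusted p = 0.00210). Fdps, which makes farnesyl pyrophosphate, was at 7.40, 7.71 and 7.12 on the arrays numbered 1 (vehicle, LCN2 day 7 and LCN2 day 0, the order used from here on) and at 6.66 to 6.94 (median 6.87) on the others, a difference of 0.57 ± 0.11 (SE) (adjusted p = 0.00593). Fdft1, squalene synthase, was at 8.88, 8.92 and 8.62 against 8.08 to 8.61 (median 8.31), a difference of 0.50 ± 0.10 (SE) (adjusted p = 0.00743). Neither gene overlapped between the arrays numbered 1 and the rest, and Fdft1 lost its call without vehicle replicate 1 (adjusted p = 0.0535). Mvd, the decarboxylase that makes isopentenyl pyrophosphate, was at 7.91, 7.87 and 7.52 against 7.22 to 7.55 (median 7.45) and overlapped: the LCN2 day 0 array numbered 1 lay among the others. Its difference of 0.35 ± 0.11 (SE) passed narrowly (adjusted p = 0.0426) and lost the call in 8 of 15 alternatives (adjusted p 0.017 to 0.199).

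Of the other mevalonate genes, the isomerase Idi1 differed by 0.32 ± 0.12 (SE) (limma, adjusted p = 0.0697) and the kinase Mvk by 0.24 ± 0.10 (SE) (adjusted p = 0.0848), both short of the threshold. Idi1 was highest on the LCN2 day 7 array numbered 1, at 7.72, against 7.15 and 7.17 on the arrays numbered 1 of the vehicle and LCN2 day 0 groups. Pmvk, the next kinase after Mvk, differed by 0.11 ± 0.10 (SE), with an interval of -0.12 to 0.33.

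The post-squalene branch held the largest differences among the members, with 6 of 9 genes higher and a median of 0.68. Dhcr7, the reductase of the final step from 7-dehydrocholesterol to cholesterol, was at 9.61 in the vehicle group, 9.54 in the LCN2 day 7 group and 9.62 in the LCN2 day 0 group on the arrays numbered 1 and at 8.48 to 8.78 (median 8.58) on the others. The gap between the lowest of the first and the highest of the second was wider than the spread within either set. The difference was 0.98 ± 0.09 (SE), or 1.97-fold (limma, adjusted p = 0.000265). Sc5d, the desaturase that makes 7-dehydrocholesterol, was at 9.72, 9.69 and 9.21 against 8.46 to 8.72 (median 8.56), a difference of 0.96 ± 0.12 (SE) (adjusted p = 0.000914). Hsd17b7, a ketoreductase that takes part in removing the methyl groups at carbon C-4, was at 8.21, 8.11 and 7.86 against 7.03 to 7.40 (median 7.27), a difference of 0.82 ± 0.11 (SE) (adjusted p = 0.00127). Each of these 3 genes was higher on every array numbered 1 than on all others.

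Cyp51, the lanosterol demethylase, was at 9.39, 9.19 and 8.73 on the arrays numbered 1 and at 7.97 to 8.58 (median 8.31) on the others, a difference of 0.81 ± 0.15 (SE) (limma, adjusted p = 0.00493). Msmo1, the methyl sterol oxidase, was at 8.75, 8.95 and 8.53 against 8.09 to 8.32 (median 8.28), a difference of 0.50 ± 0.10 (SE) (adjusted p = 0.00765). Sqle, the epoxidase that opens the branch, was at 8.45, 8.48 and 7.77 against 7.40 to 7.72 (median 7.58), a difference of 0.68 ± 0.16 (SE) (adjusted p = 0.0151). None of the 3 overlapped, although the LCN2 day 0 array lay only just above the highest of the others for Sqle. The call of Sqle was lost without vehicle replicate 1 (adjusted p = 0.107) and without LCN2 day 7 replicate 1 (adjusted p = 0.0861). Lss, the cyclase that makes lanosterol, also lay higher on every array numbered 1, at 8.24, 8.12 and 8.01 against 7.53 to 8.0 (median 7.82), but its difference of 0.33 ± 0.11 (SE) missed the threshold (adjusted p = 0.0552). Nsdhl, which acts with Msmo1 and Hsd17b7 in demethylation, differed by 0.17 ± 0.08 (SE) (adjusted p = 0.118). Ebp, the isomerase between demethylation and Sc5d, differed by 0.01 ± 0.10 (SE), with an interval of -0.22 to 0.24 that lies below the differences of Sc5d and Dhcr7.

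**Figure D3:**
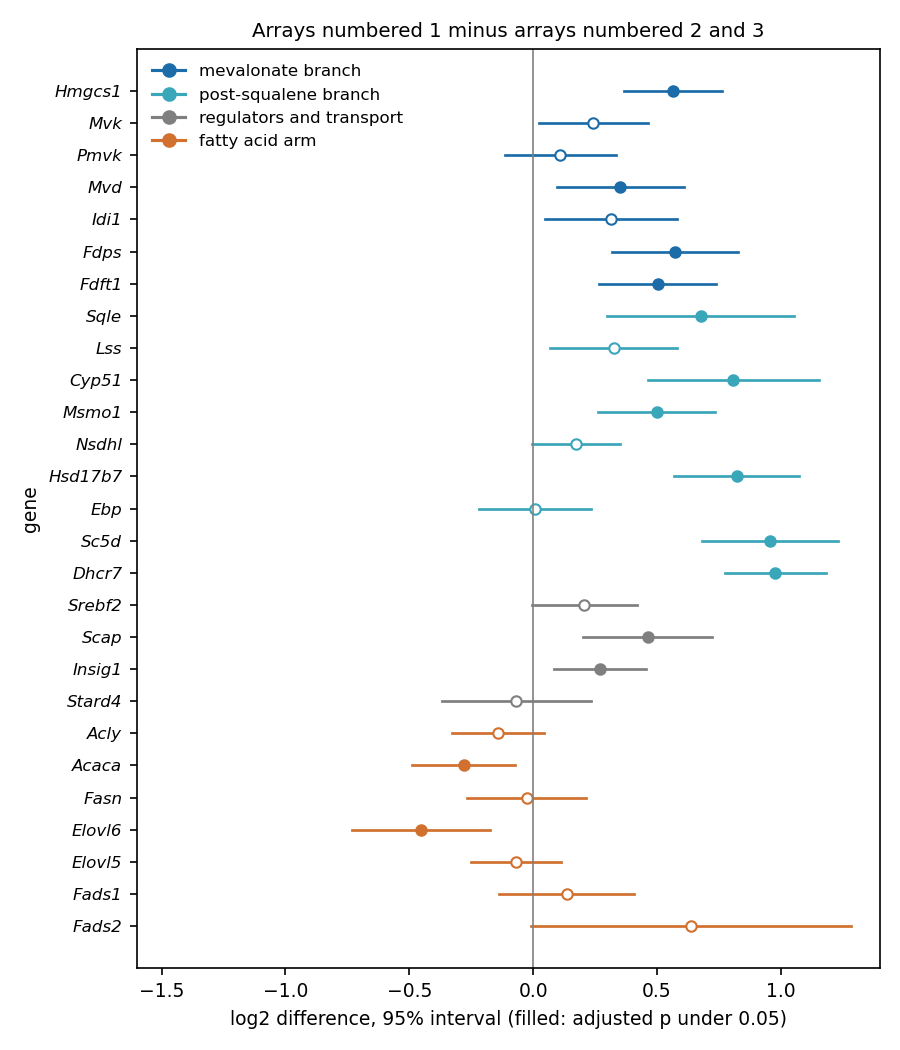
Log2 difference between the arrays numbered 1 and the mean of the arrays numbered 2 and 3 for the 27 tested members, with 95% intervals from limma and the group in the model. Filled points passed an adjusted p of 0.05 and colours mark the roles. All 16 sterol arm points lie right of 0 (15 with array medians set equal), up to 0.98 for Dhcr7, and the 2 filled points left of 0 are Acaca and Elovl6.

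Among the regulators, Scap, the escort of the SREBP precursors, was at 8.26, 8.36 and 8.65 on the arrays numbered 1 and at 7.72 to 8.07 (median 8.02) on the others, with no overlap and a difference of 0.46 ± 0.11 (SE) (limma, adjusted p = 0.0156, and 0.0886 without LCN2 day 0 replicate 1). Insig1, a sterol-regulated brake and itself an SREBP target, was at 9.34, 9.25 and 8.97 against 8.68 to 9.12 (median 8.95). Its LCN2 day 0 array numbered 1 lay within the range of the others, and its difference of 0.27 ± 0.08 (SE) (adjusted p = 0.0338) lost the call in 9 of 16 alternatives (adjusted p 0.011 to 0.193). Srebf2 itself differed by 0.21 ± 0.09 (SE) (adjusted p = 0.117) and Stard4, a carrier that moves sterol between membranes, by -0.07 ± 0.13 (SE) (adjusted p = 0.722). In all, 11 members lay higher on all 3 arrays numbered 1 than on all 6 others, against 11.8% of genes tested. They were 10 sterol arm genes and Scap, and 0 members lay lower in this way, against 23.6% of genes tested.

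In the fatty acid arm, Elovl6, which elongates palmitate to stearate, was at 7.04, 6.97 and 6.53 on the arrays numbered 1 and at 6.65 to 7.50 (median 7.40) on the others. The groups overlapped through the LCN2 day 0 array numbered 3, at 6.65. The difference was -0.45 ± 0.12 (SE) (limma, adjusted p = 0.0225), and the call was lost in 5 of 15 alternatives (adjusted p 0.006 to 0.094). Acaca, the carboxylase that commits acetyl-CoA to fatty acid synthesis, was at 7.00, 7.18 and 6.85 against 7.13 to 7.55 (median 7.26) and differed by -0.28 ± 0.09 (SE) (adjusted p = 0.0455), a call lost in 11 of 15 alternatives (adjusted p 0.025 to 0.180). Fasn, the synthase, differed by -0.03 ± 0.11 (SE) with an interval of -0.27 to 0.22. Acly, which supplies cytosolic acetyl-CoA to both arms, differed by -0.14 ± 0.08 (SE) with an interval of -0.33 to 0.04. These intervals lie below the differences of Hmgcs1, Dhcr7 and Sc5d. The elongase Elovl5 differed by -0.07 and the desaturase Fads1 by 0.13, neither of them called.

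Fads2, the desaturase that starts the synthesis of long polyunsaturated fatty acids, had the widest spread of the members. The LCN2 day 7 array numbered 1 was at 8.22, while the arrays numbered 1 of the vehicle and LCN2 day 0 groups were at 7.05 and 6.76, and the other 6 at 6.49 to 7.01 (median 6.69). Its difference of 0.64 ± 0.28 (SE) was not called (limma, adjusted p = 0.114). Scd1, the stearoyl-CoA desaturase below the filter, was at 5.05, 5.25 and 5.01 on the arrays numbered 1 and at 4.20 to 4.57 (median 4.33) on the others. Those dim values did not overlap and were not tested.

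Averaged over its genes, each centred on its own mean, the sterol arm was at 0.43, 0.43 and 0.13 on the arrays numbered 1 and at -0.29 to -0.11 on the other 6. The fatty acid arm, Scd1 included, was at 0.048, 0.23 and -0.15 on the arrays numbered 1 and at -0.15 to 0.069 on the others. The first arm separated the arrays by number and the second did not. The sterol arm minus the fatty acid arm was 0.38, 0.20 and 0.28 on the arrays numbered 1, a mean of 0.285 ± 0.091 (SD, n = 3), and -0.143 ± 0.033 (SD, n = 6) on the others. The gap between these means, 0.428, was 0.522 when Scd1 was left out. These averages are a description, since the members were chosen with results of these arrays known.

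**Figure D4:**
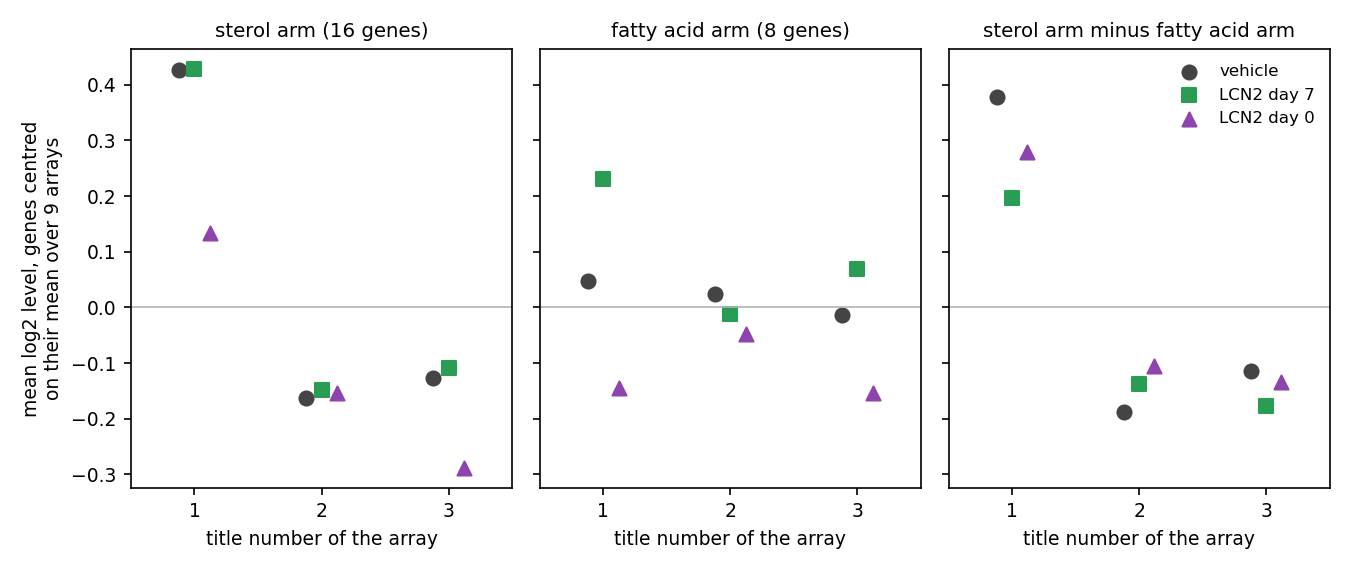
Mean log2 level of the 16 sterol arm genes, of the 8 fatty acid arm genes and the difference between both arms on each array, with each gene centred on its mean over the 9 arrays, against the title number. Each symbol is 1 array, its shape and colour showing the group. The sterol arm and the difference are high on all 3 arrays numbered 1, and the fatty acid arm is mixed.

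The size of the shift on the arrays numbered 1 was not even across groups. For the mean of the sterol arm it was 0.57 in the vehicle group, 0.56 in the LCN2 day 7 group and 0.35 in the LCN2 day 0 group. For Sqle it was 0.98 in the vehicle group, 0.92 in the LCN2 day 7 group and 0.13 in the LCN2 day 0 group, and for Sc5d 1.20 in the vehicle group, 1.09 in the LCN2 day 7 group and 0.58 in the LCN2 day 0 group. Dhcr7 and Scap ran the other way, with 0.97 in the vehicle group, 0.86 in the LCN2 day 7 group and 1.11 in the LCN2 day 0 group for Dhcr7 and 0.29 in the vehicle group, 0.32 in the LCN2 day 7 group and 0.78 in the LCN2 day 0 group for Scap. In 14 of 16 sterol arm genes the shift was above 0 in every group, and in 11 of these it was smallest in the LCN2 day 0 group. That count was made after the values were seen. Of the 10042 genes tested, 2368 had a shift above 0 in every group, and in 528 of these (5.26% of genes tested) it was smallest in the LCN2 day 0 group. With 1 array numbered 1 in each group, this could not be tested.

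The other pathway lists differed in direction on the arrays numbered 1, where 11.0% of genes tested were higher and 22.1% lower. Of 10 tested SREBP targets outside the members 7 lay above 0, against 4110 of the 10042 genes tested. Of these targets 1 was called higher, Acss2, a cytosolic acetyl-CoA synthetase, at 0.52 ± 0.15 (SE, limma, adjusted p = 0.0304). Another 1 was called lower, Me1, the malic enzyme that makes NADPH for lipid synthesis, at -0.33 (adjusted p = 0.0366). Of 10 SREBP control genes, most process, retain or degrade SREBP pathway proteins and the rest encode kinase subunits. On the arrays numbered 1, 0 of the 10 were higher and 6 were lower, and 9 of 10 lay below 0. The 4 with the smallest p were Rnf145, a ubiquitin ligase of the endoplasmic reticulum, at -0.52, Erlin1 and Erlin2, membrane proteins of the same compartment, at -0.52 and -0.36, and Fbxw7, the ligase subunit that marks nuclear SREBP for degradation, at -0.43. Of 7 LXR and oxysterol genes all lay above 0 and 4 were higher: Abca1, which exports cholesterol, at 3.03, Nr1h3, which encodes LXR alpha, at 1.04, Abcg1, another exporter, at 0.58, and Lpcat3, a phospholipid-remodelling enzyme, at 0.29. Abca1 was at 10.47, 10.18 and 10.49 on the arrays numbered 1 and at 6.82 to 7.77 on the others, so that export and synthesis genes were high on the same arrays.

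Markers of other cell types and of proliferation were also called between the title numbers, to be read against the 33.2% of all genes that were (11.0% higher and 22.1% lower). Among 21 cell cycle genes, 19 lay lower on these arrays by the same test, and their mean level there was 8.05 to 8.62 against 9.01 to 9.31 on the others. Of 7 tested neutrophil granule genes 6 were lower, with a mean over the 10 measured genes of 5.54 to 6.22 against 6.82 to 7.31, and of 6 tested monocyte genes 4 were lower and 1 was higher (mean over the 7 measured genes 6.40 to 6.60 against 6.81 to 7.22). Of 6 tested osteoclast and fusion genes 4 were higher and 1 was lower, with a mean over the 8 measured genes of 8.09 to 8.61 against 7.21 to 7.87. Of 8 macrophage markers 3 were higher and 1 was lower (10.75 to 10.83 against 10.51 to 10.63). Of 4 genes of the IL-4 state 2 were higher and 1 was lower (12.01 to 12.14 against 11.49 to 11.91), and of 3 tested dendritic cell genes 1 was higher and 0 were lower. Of 8 stromal and adipocyte markers 6 lay below the filter, Adipoq and Plin1, which define adipocytes, among them. The 2 that passed were Col1a1 and Cxcl12, of which 1 was higher, Cxcl12 at 0.65 (limma, adjusted p = 0.00824), and 0 were lower. The part of these markers in the difference of the sterol genes was not tested. In bulk RNA, fewer cells of a type and less RNA per cell cannot be told apart.

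The LCN2 groups were compared next, to ask whether LCN2 given late or throughout differentiation changed these genes in IL-4-stimulated macrophages. In none of the 3 comparisons did limma call a member or any other gene (0 of 10042, 0%), with or without the title number as a block. The comparisons share groups: both LCN2 groups were set against the same vehicle arrays, and the comparison between them reuses both. After LCN2 from day 7 the members had no common direction. Against vehicle, 8 of 16 sterol arm genes and 17 of all 27 members lay above 0 (50.9% of genes tested did), the sterol arm had a median of 0.001 and the fatty acid arm had a median of 0.039 (all genes tested, 0.003). The sterol median was 0.170 without vehicle replicate 1, with 14 of 16 genes above 0, and -0.207 without LCN2 day 7 replicate 1, with 3 of 16 above 0. Leaving out 1 array numbered 1 leaves its group without that number, so the shift by title number enters the difference. Within title numbers 1, 2 and 3, the mean of the sterol arm differed by 0.002, 0.014 and 0.018. Genes at an unadjusted p under 0.05 numbered 70 (0.697%) without the block, with 0 members, and 259 (2.58%) with the block, with 1 member. That member was Idi1, at 7.15, 6.92 and 6.90 in vehicle (arrays 1, 2 and 3) and 7.72, 7.08 and 7.18 after LCN2 from day 7. Its difference was 0.34 ± 0.18 (SE) (limma, adjusted p = 1.00, and 0.999 with the block), or 0.14 without LCN2 day 7 replicate 1, and the groups overlapped. Pmvk had the lowest difference, -0.22 ± 0.13 (SE), and was the single member whose groups did not overlap, at 6.70, 6.56 and 6.50 against 6.28, 6.41 and 6.40 (1.67% of genes tested lay lower in this way). Without the block the intervals stayed wide: that of Hmgcs1 ran from -0.60 to 0.48 and that of Dhcr7 from -0.87 to 0.88. These widths include the shift by title number. With the block the interval of Hmgcs1 ran from -0.29 to 0.16.

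After LCN2 from day 0, most members had lower means than in vehicle, by amounts within the spread of the arrays. Differences were below 0 for 23 of 27 members, against 54.8% of genes tested. That count was 15 without vehicle replicate 1 and 19 with all arrays numbered 1 left out. In the sterol arm 14 of 16 lay below 0 (median -0.14), in the fatty acid arm 6 of 7 (median -0.10) and among regulators 3 of 4, while the median of all genes tested was -0.01. Limma called 0 members (adjusted p under 0.05), with 0 at an unadjusted p under 0.05 without the block and 4 with it, against 1.41% and 4.95% of genes tested. The sterol median turned to 0.031 without vehicle replicate 1, and it was -0.088 with all arrays numbered 1 left out. The first omission leaves vehicle alone without an array numbered 1, so group and title number are mixed in its values. The second keeps the groups balanced. Within title numbers, the mean of the sterol arm differed by -0.29, 0.01 and -0.16 for numbers 1, 2 and 3, and that of the fatty acid arm by -0.19, -0.07 and -0.14. All 3 same-number pairs were below 0 in 10 of 27 members, against 15.4% of genes tested, and all 3 were above 0 in 0 members, against 11.8%.

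The 4 members past an unadjusted p of 0.05 with the block were Hmgcs1, Mvk, Insig1 and Elovl6, and all had lower means (3.31% of genes tested passed in this direction). Hmgcs1 was at 10.24, 9.56 and 9.64 in vehicle and 9.73, 9.40 and 9.25 after LCN2 from day 0, and the groups overlapped. Its pairs differed by -0.51, -0.16 and -0.39, and its difference was -0.35 ± 0.24 (SE), or ± 0.10 (SE) with the block (limma, adjusted p = 0.999 and 0.944). Insig1 was at 9.34, 8.90 and 9.0 against 8.97, 8.76 and 8.68, with pairs at -0.37, -0.15 and -0.32 and a difference of -0.28 ± 0.14 (SE). In both genes the pair numbered 2 moved least. Mvk was at 6.89, 6.94 and 6.70 against 6.82, 6.38 and 6.32, a difference of -0.34 ± 0.15 (SE) carried by the pairs numbered 2 and 3. Elovl6 was at 7.04, 7.44 and 7.36 against 6.53, 7.35 and 6.65, with pairs at -0.51, -0.09 and -0.71 and a difference of -0.43 ± 0.24 (SE), and its array numbered 2 lay within the range of the vehicle arrays. Without vehicle replicate 1 the difference was -0.14 for Hmgcs1 and -0.15 for Insig1, and that of Elovl6 was -0.28 without LCN2 day 0 replicate 1 but -0.69 when replicate 2 of that group was left out. Leaving out a single array numbered 1 mixes group with title number. The adjusted p of these 4 with the block was 0.944 to 0.960 (limma). Cyp51, lower by mean with -0.37, had pairs at -0.65, 0.15 and -0.61 and so did not keep 1 direction.

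**Figure D5:**
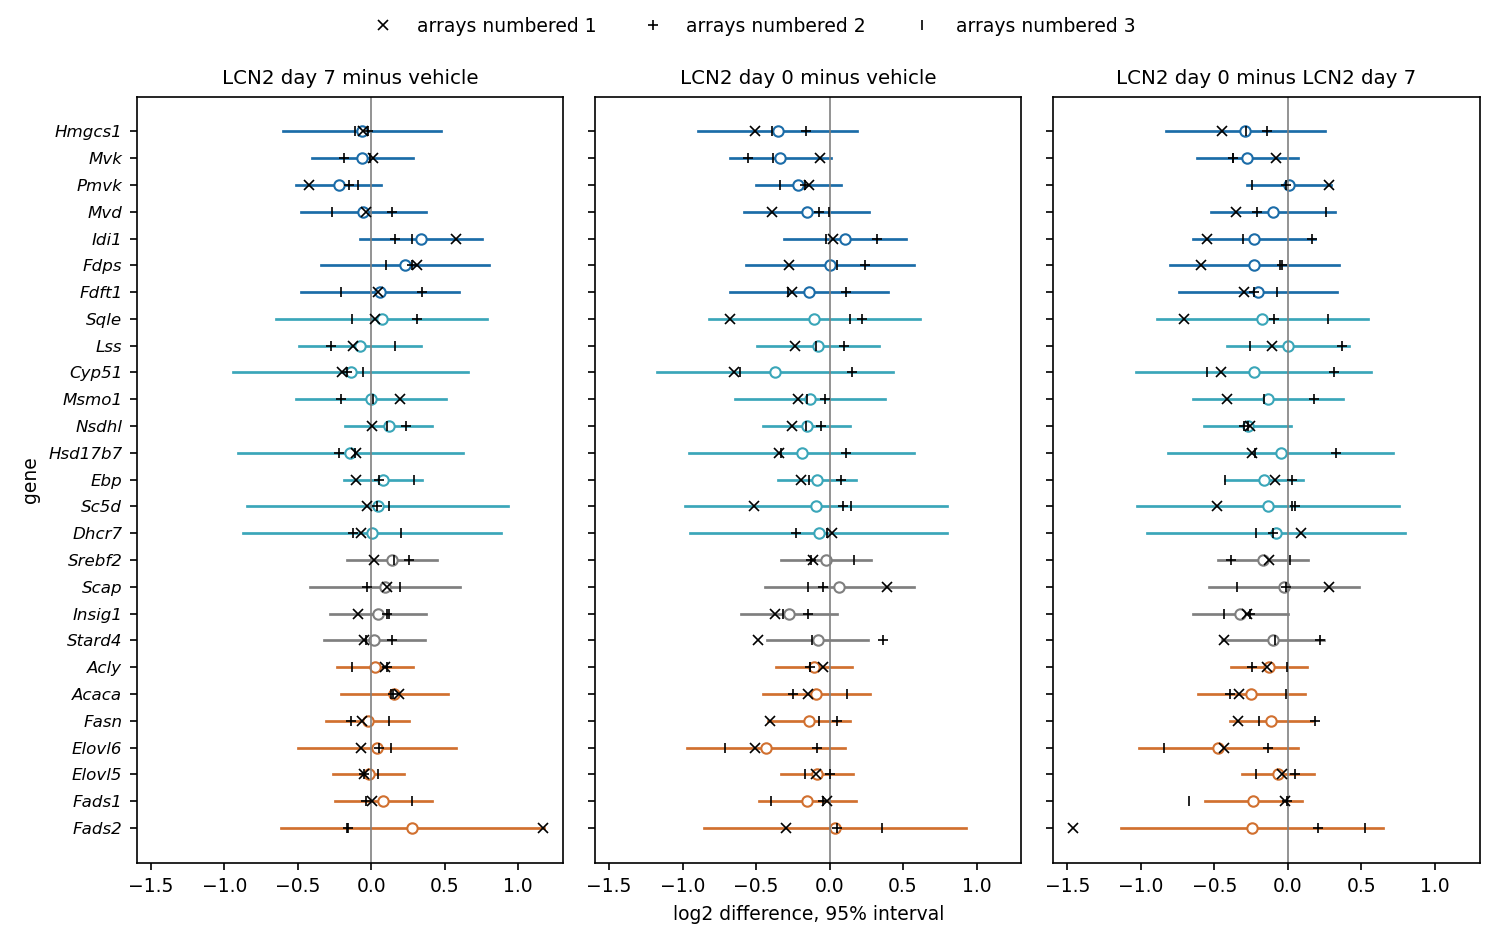
Log2 differences of the 27 tested members between the LCN2 groups and vehicle and between both LCN2 groups, with 95% intervals from limma without the block (circles and lines) and the difference within each title number (crosses, plus signs and ticks). No member passed an adjusted p of 0.05, so every circle is open. In the panels for LCN2 from day 0, 23 and 25 of 27 circles lie left of 0, and every interval crosses it.

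Set against LCN2 from day 7, the LCN2 day 0 group had lower means for 25 of 27 members, against 55.5% of genes tested, with medians of -0.17 in the sterol arm and -0.23 in the fatty acid arm (7 of 7 below 0). Limma called 0 members, with 0 at an unadjusted p under 0.05 without the block (1.76% of genes tested) and 6 with it (5.37%), all lower (3.42%). These were Insig1, Elovl6, Nsdhl, Hmgcs1, Mvk and Acaca. Insig1, at 9.25, 9.01 and 9.12 after LCN2 from day 7 and 8.97, 8.76 and 8.68 from day 0, did not overlap between the groups and differed by -0.32 ± 0.14 (SE) (limma, adjusted p = 1.00, and 0.888 with the block). Nsdhl, at 9.64, 9.66 and 9.41 against 9.39, 9.36 and 9.14, did not overlap either and differed by -0.27 ± 0.13 (SE). No other member separated the groups, and 2.93% of genes tested lay lower in this way. Elovl6 differed by -0.47 ± 0.24 (SE), Acaca by -0.25 ± 0.16 (SE), Hmgcs1 by -0.29 ± 0.24 (SE) and Mvk by -0.27 ± 0.15 (SE), each with overlapping groups. These values moved by over 1.5 times with single arrays: Hmgcs1 was at -0.07 without LCN2 day 7 replicate 1, and Acaca at -0.14 without replicate 2 of that group. Leaving out LCN2 day 0 replicate 1 put Acaca at -0.13, Mvk at -0.43 and Elovl6 at -0.31. Leaving out replicate 2 of the LCN2 day 0 group put Elovl6 at -0.73, and leaving out replicate 3 put Hmgcs1 at -0.19 and Mvk at -0.18. All 3 same-number pairs were below 0 in 10 of 27 members, against 12.9% of genes tested. The sterol median ranged from -0.289 to 0.049 as single arrays were left out. It was above 0 only without LCN2 day 7 replicate 1, when 16 of the 27 members lay below 0. With all arrays numbered 1 left out, 19 did. Here too, leaving out a single array numbered 1 mixes group with title number.

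The arms did not part between the LCN2 groups as they did between title numbers. The sterol arm minus the fatty acid arm was 0.03 ± 0.31 in vehicle, -0.04 ± 0.21 after LCN2 from day 7 and 0.01 ± 0.23 after LCN2 from day 0 (SD, n = 3 each), and the groups overlapped. Within title numbers 1, 2 and 3, it differed by -0.18, 0.05 and -0.06 between LCN2 from day 7 and vehicle and by -0.10, 0.08 and -0.02 between LCN2 from day 0 and vehicle. Between the LCN2 groups it differed by 0.08, 0.03 and 0.04, all above 0 and each under the 0.35 to 0.53 by which the arrays numbered 1 differed from the rest within a group. Outside the members, limma called 0 of the other SREBP targets, 0 SREBP control genes and 0 LXR genes in any LCN2 comparison, each count at an adjusted p under 0.05. At an unadjusted p under 0.05, 1 other target passed in each comparison that involved LCN2 from day 0 and 0 of the remaining genes of these lists did. With the block, 1 other target passed for LCN2 from day 0 against vehicle and 2 between the LCN2 groups. Against vehicle, the other targets ran from Gpam, the acyltransferase that starts glycerolipid synthesis, at -0.29 to Me1 at 0.22 after LCN2 from day 0, and the LXR genes from Cyp27a1, a sterol hydroxylase, at -0.36 to Ch25h, another, at 0.38. Beside these, the 6 tested osteoclast and fusion genes all lay below 0 in the LCN2 day 0 group (54.8% of genes tested did), with a median of -0.72, and the 7 tested neutrophil genes all above 0, with a median of 0.45. Limma called 0 genes of either list, while 1 osteoclast gene passed an unadjusted p of 0.05 without the block and 4 with it, and 1 and 2 neutrophil genes did (1.41% and 4.95% of genes tested). All 3 same-number pairs were below 0 in 5 osteoclast genes and above 0 in 6 neutrophil genes (15.4% and 11.8% of genes tested). Their part in the lower means of the members was not tested.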

How the data were processed

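The deposited table holds log2 levels of 22203 probe sets on 9 arrays, 3 in each of 3 groups. Per the submitters' processing notes the authors used RMA and the R package oligo, with no versions given. RMA corrects background, makes arrays alike in distribution and summarises probes, so a shift shared by all genes would not show. The values were used as deposited, with array medians of 5.60 to 5.69. Array data carry no counts, and the number of arrays limits the precision.

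Probe sets with 1 symbol in the platform annotation (19572) were matched by Entrez identifier to RefSeq (GRCm38.p6). Where a gene had several probe sets, that of highest mean was kept. Probe sets with a mean below the median of all means (5.66) were left out, which left 10042 genes. Groups were compared in limma 3.58.1 (R 4.3.3), with 1 mean per group in 1 fit of all 9 arrays, and title numbers in an additive model with the group. Calls were made at 0.05 after Benjamini-Hochberg adjustment across the 10042 genes. The fit for title numbers was tested on simulated data. A difference is on the log2 scale, its SE is the moderated one, and intervals are at 95%.

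The title numbers were taken to pair the arrays. Same-numbered arrays of different groups deviated together from their group means (r = 0.16 to 0.82 over genes in all 9 pairs). Arrays numbered 2 did so with arrays numbered 3 of other groups as well (r = 0.20 to 0.69), and only 5 of 9 arrays correlated best with their own number. These correlations set the arrays numbered 1 apart but cannot show that numbers 2 and 3 mark pairs. The fit with the number as a block was run as an alternative. The other alternatives were the filter, the scaling, the variance trend, the rule for several probe sets, and leaving out each array, or all arrays numbered 1 (added after seeing the data).

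The members, the marker and pathway lists and the comparison by title number were chosen with earlier results of these data known, so no list was given a p. All members are described. Of other pathway lists, called genes are named, at most the 4 with the smallest p, and otherwise the highest and lowest difference. Promoter windows came from RefSeq (GRCm38.p6), with all starts of a gene counted together.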

Additional observations from a re-analysis of the deposited data

Results flagged for a closer look

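Nsdhl, a dehydrogenase of sterol demethylation, lay on different sides of vehicle in the LCN2 groups. Each LCN2 day 7 array lay above the vehicle array of its own title number, by 0.0059, 0.24 and 0.11 on the log2 scale for numbers 1, 2 and 3, so that the first pair was level in practice. Each LCN2 day 0 array lay below it, by differences of -0.25, -0.06 and -0.16. Against vehicle the differences were 0.12 ± 0.13 and -0.16 ± 0.13 (SE), and the LCN2 groups differed by -0.27. Limma called none of these, with an adjusted p of 1.00 between the LCN2 groups (range over the alternatives 0.863 to 1.00). Of the 10042 genes tested, 100 moved apart in this way on every array. The groups were too small for a test of single outlying arrays.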

How the results depend on the processing

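In each LCN2 comparison, 0 members and 0 genes were called under every alternative, the title number as a block included. In this balanced layout the block cannot move a difference, so the sterol medians of 0.001, -0.138 and -0.168 are the same in both fits. It narrowed errors (that of Hmgcs1 from 0.24 to 0.10), and members at an unadjusted p under 0.05 went from 0 to 1, 4 and 6, in the same order (LCN2 from day 7 and from day 0 against vehicle, then both LCN2 groups). The sterol median for LCN2 from day 7 against vehicle was 0.029 with array medians set equal and ran from -0.207 to 0.170 as single arrays were left out, and that between both LCN2 groups ran from -0.289 to 0.049. Leaving out 1 array numbered 1 leaves its group without that number, so these ranges also hold the shift by title number. For the arrays numbered 1, the sterol median stayed between 0.421 and 0.596 in all 16 alternatives. The fatty acid median there was 0.015 after quantile normalization. The 14 called members became 9 with the filter at the 75th percentile, which tested 15 members and called 50.4% of all genes tested. They became 17 after quantile normalization, which called 3212 genes. As single arrays were left out the called members became 8 to 15, and the called genes 1783 to 3616. Hmgcs1, Fdps, Cyp51, Msmo1, Hsd17b7, Sc5d and Dhcr7 kept their calls in every alternative that tested them. Between numbers 2 and 3, the fatty acid median of -0.020 was -0.064 with the stricter filter, -0.0017 after quantile normalization and -0.10 to 0.083 as single arrays were left out. The sterol arm minus the fatty acid arm was 0.522 with tested genes only. Where the settings do not themselves reduce the genes or arrays used, the cause was not tested. With 3 arrays a group, intervals for differences between LCN2 groups are wide, and Scd1, below the filter, was not tested.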
